A study of Mus musculus with 6 samples.

Results

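Transcripts of 7 selenoproteins of the endoplasmic reticulum (ER) were followed in primary hepatocytes of alcohol-fed mice. The genes were Selenos, Selenok, Selenof, Selenom, Selenot, Selenoi and Selenon. They were picked by name, with no threshold on a measured value but with earlier results of these data known, and each had 1 row among the 25718 genes of the table. Dio2, whose product is also found in the ER, was not among them. The chosen genes make up 7 of the 24 selenoprotein genes of the mouse, and all 7 passed the filter on low counts that left 15957 genes for testing.

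Polyadenylated RNA was sequenced from hepatocytes of 3 wild-type (WT) libraries and 3 libraries of S100a16KO+/- mice. S100a16KO+/- animals carry 1 deleted copy of S100a16, which encodes a calcium-binding protein of the S100 family. The deletion removed floxed exons 2 to 3 in the germline through EIIa-Cre, so it was not restricted to hepatocytes. Only heterozygotes were studied, since mice lacking both copies do not survive. The labels call this genotype an S100A16 knockdown. Both groups were male mice of 8 to 10 weeks that received a control liquid diet for 5 days, a diet with 5% ethanol for 10 days and 1 gavage of 5 g/kg ethanol 9 hours before collection. No library of mice without alcohol was analysed here, so every difference below is between genotypes under alcohol. The sources used here do not say whether the WT mice were littermates. The study describes a serum-containing culture medium for isolated hepatocytes in general, without saying whether the sequenced cells were kept in it before lysis.

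Selenoproteins contain selenocysteine, an amino acid that is inserted at a UGA codon which would otherwise end translation. Several of them sit in the ER membrane or lumen. SELENOS (VIMP) and SELENOK are membrane proteins that bind Derlins and recruit the ATPase p97 to ER-associated degradation (ERAD), the removal of misfolded proteins. SELENOF and SELENOM are lumenal proteins with a thioredoxin-like fold, SELENOT is a thioredoxin-like protein of the ER membrane, SELENON is a calcium-responsive ER membrane protein known from muscle disease, and SELENOI is the ethanolamine phosphotransferase of phosphatidylethanolamine synthesis. The unfolded protein response is known to raise transcription of ERAD and chaperone genes in stressed hepatocytes.

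The codons that define these transcripts are shown first, because selenocysteine is what the 7 genes share and its place sets them apart from each other. Each line gives 12 coding-strand bases on either side of the selenocysteine codon in the GENCODE M21 transcript (GRCm38), and the capitals mark the TGA.
Selenos: tcatctggcggcTGAaactaagactct
Selenok: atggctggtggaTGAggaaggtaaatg
Selenoi: ccaaactcagatTGActaggaatggaa
Selenof: gaagtctgcggaTGAaaattggggagg
Selenot: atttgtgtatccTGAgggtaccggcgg
Selenom: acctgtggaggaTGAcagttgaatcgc
Selenon: gaccagtcctgcTGAggttccgggcgg

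In Selenos the TGA is codon 189 of 190 and lies in exon 6 of 6, at chr7:66088844-66088846 on the plus strand. In Selenok it is codon 92 of 94 in exon 4 of 5, at chr14:29973440-29973442 on the plus strand, 5 bases before the last exon junction. In Selenoi it is codon 388 of 398 in exon 10 of 10, at chr5:30266964-30266966 on the plus strand. These 3 genes therefore place selenocysteine within 10 residues of the C-terminus, and none of them has a cysteine codon within 4 codons before it. The other 4 place it further inside the protein. It is codon 93 of 162 in Selenof, 49 of 195 in Selenot, 48 of 145 in Selenom and 428 of 557 in Selenon, and a cysteine codon stands 1 to 3 codons before it in each. In those 4 the TGA lies 78 (Selenof) to 470 (Selenot) bases before the last exon junction.

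On GRCm38 the genes lie at chr7:66079649-66089405 (Selenos, plus strand), chr14:29968308-29975662 (Selenok, plus), chr3:144570304-144597680 (Selenof, plus), chr3:58576636-58593133 (Selenot, plus), chr5:30232581-30272427 (Selenoi, plus), chr11:3514684-3517348 (Selenom, plus) and chr4:134537892-134552166 (Selenon, minus). Only Selenof and Selenoi overlap another annotated gene, in both cases on the opposite strand, and these neighbours held at most 2 and 7 estimated counts in any library. Selenok and Selenot have processed pseudogenes. Of the 31-base words of the annotated transcripts, 12.8% (Selenok) and 3.03% (Selenot) also occur in other genes, and the other 5 genes shared none. The pseudogene rows themselves held at most 8 estimated counts in a library. Values of Selenok and Selenot could still hold reads of those copies, and this was not tested.

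The libraries held 67658095 to 71807834 estimated counts, and 1 sequenced fragment is worth about 4 of them. The 3 WT libraries held 1001, 1056 and 1107 estimated counts of S100a16, against 433, 390 and 366 after loss of 1 copy, or 38.0% of the WT level after scaling (log2 fold change -1.40 ± 0.11 SE). WT replicate 1 and S100a16KO+/- replicate 2 stood apart from the other 4 libraries on the second principal component, which carried 12.8% of the variance. They also had the 2 largest shares of mitochondrial counts, 21.1% and 20.1%, against 17.0% to 18.6% elsewhere. Hepatocyte markers summed to 105400 to 117200 CPM (counts scaled to a common library size) in WT and 103100 to 114400 in S100a16KO+/- libraries, so the labelled cell type was present in all 6. Of the 6 hepatocyte markers, 1 was called lower. Of the markers of other cell types, 4 of 5 endothelial, 2 of 5 stellate and 2 of 5 Kupffer cell markers were called higher. Called lower were 1 of 5 endothelial, 1 of 3 tested cholangiocyte and 4 of 4 erythroid markers. Summed cholangiocyte markers were few and lower in S100a16KO+/- libraries (2.61 to 3.31 CPM in WT, 1.88 to 2.44 in S100a16KO+/-). Summed markers of sinusoidal endothelial cells (156.5 to 164.5 CPM in WT, 223.6 to 229.8 in S100a16KO+/-) and stellate cells (29.4 to 30.8, and 54.0 to 61.9) were higher in S100a16KO+/- libraries, those of Kupffer cells overlapped (75.2 to 92.7, and 84.6 to 96.6), and those of erythroid cells were lower (208.8 to 244.9, and 19.5 to 21.8). In bulk RNA, fewer cells of a type and less RNA per cell cannot be told apart. The part of these other cells in the results on selenoproteins was not tested.

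Under this comparison, 3 of the 7 ER selenoprotein transcripts were higher in S100a16KO+/- hepatocytes (Selenos, Selenok and Selenof), 2 were lower (Selenoi and Selenot) and 2 did not pass the test (Selenom and Selenon). The test was the quasi-likelihood test of edgeR with Benjamini-Hochberg adjustment over all tested genes at 0.05. Of all tested genes, 11.6% were called higher and 11.2% lower. The 5 called members were all above an average FPKM of 1 (fragments corrected for the length of the transcript and the size of the library), and 32.7% of the 9043 tested genes above that level were called in either direction. Among the 2162 tested genes at an FPKM of at least 10, where 4 of the 5 called members lie, 46.2% were called. The changes were small. None reached the 2-fold limit that the study combined with an unadjusted p under 0.05, which 4.52% of all tested genes met. Values of 5 of the 7 did not overlap between genotypes (all but Selenot and Selenon), as was the case for 37.9% of all tested genes. The median log2 fold change of the 7 genes was 0.46, beside 0.01 for all tested genes, but it depended on the weakly expressed Selenom and Selenon and on single libraries. It was 0.20 over the 5 called members, 0.15 over all 7 without S100a16KO+/- replicate 2 and 0.17 without both libraries that stood apart.

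**Figure D1:**
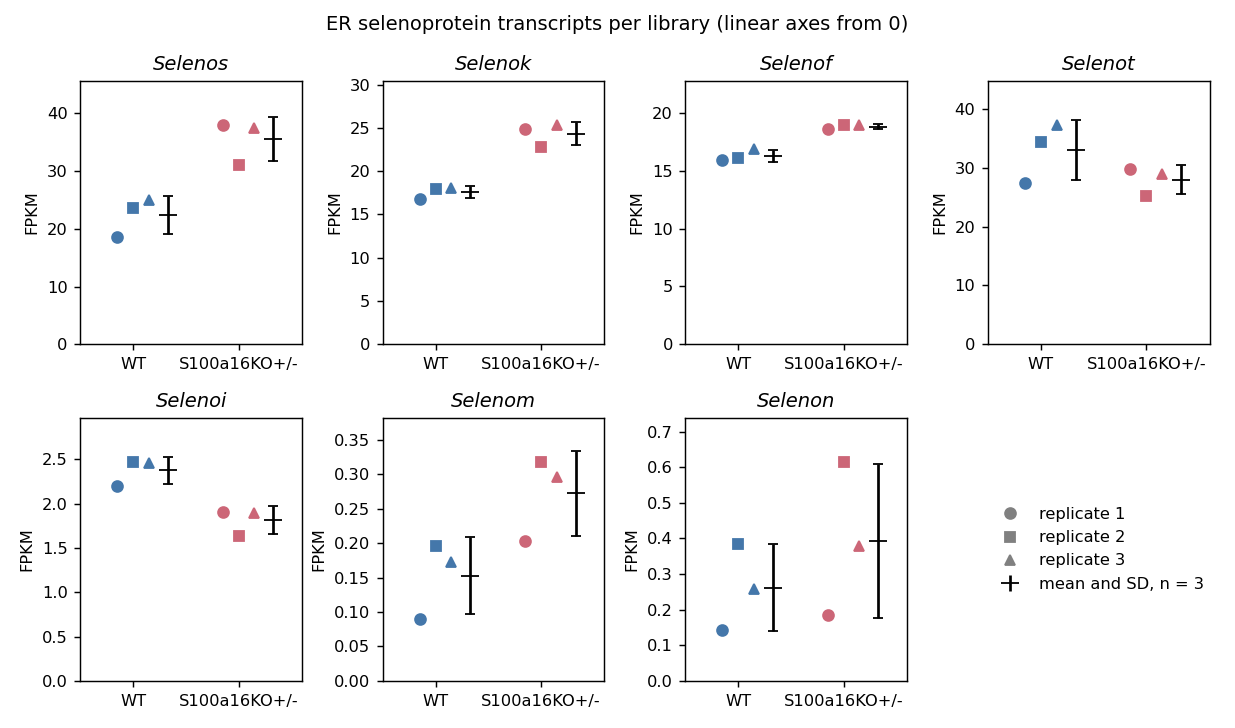
FPKM of each ER selenoprotein transcript in every library, WT in blue and S100a16KO+/- in red, with marker shapes for the replicate number and black bars for the mean and SD of 3 libraries. All axes are linear and start at 0, and each gene has its own range. Selenos, Selenok and Selenof sit higher in all S100a16KO+/- libraries and Selenoi sits lower, whereas the genotypes overlap for Selenot and Selenon.

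Selenos, the p97 adaptor of ERAD, showed the largest called difference of the group. It measured 32.5, 37.7 and 40.5 CPM in WT hepatocytes, against 61.4, 54.2 and 59.4 CPM in S100a16KO+/- hepatocytes. The genotypes did not overlap, and the lowest library within each genotype was the one that stood apart. The mean rose from 36.9 ± 4.10 to 58.4 ± 3.73 CPM (SD, n = 3 libraries), a 1.58-fold increase (log2 fold change 0.66 ± 0.08 SE, edgeR adjusted p = 2.87e-05). Without the 2 libraries that stood apart the log2 fold change was 0.62.

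Selenok, which also works in ERAD and forms a complex with the palmitoyltransferase DHHC6, had steady values on the CPM scale. It measured 37.4, 36.7 and 37.6 CPM in WT and 51.5, 50.9 and 51.4 CPM in S100a16KO+/- libraries. The gap between the genotypes was far wider than the spread within either of them. The mean rose 1.38-fold, from 37.2 ± 0.481 to 51.3 ± 0.357 CPM (SD, n = 3 libraries; log2 fold change 0.46 ± 0.05 SE, edgeR adjusted p = 2.03e-05). Selenos and Selenok thus had nearly equal mean CPM in WT cells, but CPM is not corrected for the length of the transcript. On FPKM, which is, Selenos was higher than Selenok in every library. The ratio of Selenos to Selenok in FPKM overlapped between genotypes (1.11 to 1.38 in WT, 1.36 to 1.53 in S100a16KO+/-).

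The wider set of ERAD partners of these proteins moved mostly the same way. Of 16 genes of this list, 10 were higher and 1 was lower, with a median log2 fold change of 0.33 beside 0.01 for all tested genes. The called share was 68.8%, beside 22.8% of all tested genes. Among tested genes it was 32.7% at an average FPKM of at least 1 and 46.2% at 10 or more. The largest increases were those of Derl3, a Derlin (log2 fold change 3.76 ± 0.10 SE), Syvn1, which encodes the ubiquitin ligase HRD1 (2.21 ± 0.06), Sel1l, its adaptor (0.90 ± 0.05), and Edem1, a lectin that hands misfolded glycoproteins to ERAD (0.83 ± 0.06). The called member that went the other way was Vcp, which encodes p97 itself (-0.19 ± 0.05, edgeR adjusted p = 0.0165). The log2 fold changes of Selenos (0.66) and Selenok (0.46) were smaller than those of these 4 genes, which were picked as the largest of the list. Both were above the list median of 0.33. Neither difference was tested. The list was chosen with earlier results of these data known.

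Selenof encodes a lumenal protein that binds the glycoprotein-folding sensor UGGT. It had 109.3, 101.4 and 108.2 CPM in WT and 118.2, 130.2 and 118.1 CPM in S100a16KO+/- libraries, with no overlap and with the highest value in S100a16KO+/- replicate 2. The mean rose 1.15-fold, from 106.3 ± 4.27 to 122.2 ± 6.95 CPM (SD, n = 3 libraries; log2 fold change 0.20 ± 0.06 SE, edgeR adjusted p = 0.0231). This call depended on single libraries. Leaving out WT replicate 2, WT replicate 3 or S100a16KO+/- replicate 2 gave adjusted p = 0.116, 0.0580 and 0.0724 in the same test, with log2 fold changes of 0.17, 0.21 and 0.15.

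The selenium-free folding machinery of the ER lumen, in which SELENOF and its partner act, was taken as a list of thiol redox and folding genes. Of its 13 tested genes, 9 were higher and none was lower by the edgeR test, with a median log2 fold change of 0.66. The called share was 69.2%, beside 22.8% of all tested genes. Among tested genes it was 32.7% at an average FPKM of at least 1 and 46.2% at 10 or more. Among the called genes at an average FPKM of at least 1, the largest increases were those of the disulfide isomerases Pdia4 (1.76 ± 0.05 SE) and Pdia6 (0.81 ± 0.05), the SELENOF partner Uggt1 (0.88 ± 0.07) and the lectin chaperone Calr (0.73 ± 0.06). Uggt1 rose from 3.08 to 5.71 FPKM, whereas Selenof rose from 16.3 to 18.8 FPKM. The 4 genes that did not pass were Ero1l, Prdx4, Gpx7 and Ero1lb. Ero1lb, an oxidase of the disulfide isomerases, is singled out after its values were seen. It had 15.8, 4.92 and 15.5 FPKM in S100a16KO+/- libraries against 4.69, 5.61 and 5.39 in WT, with replicate 2 alone at the WT level (1.18 ± 0.48 SE, edgeR adjusted p = 0.181).

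Selenoi was the most clearly lowered member. WT libraries gave 34.1, 35.3 and 35.6 CPM, and S100a16KO+/- libraries gave 27.5, 25.3 and 26.8 CPM, with no overlap. The mean fell from 35.0 ± 0.763 to 26.5 ± 1.10 CPM (SD, n = 3 libraries), which is 75.8% of the WT level (log2 fold change -0.40 ± 0.06 SE, edgeR adjusted p = 3.74e-04). SELENOI transfers phosphoethanolamine to diacylglycerol in the last step of the CDP-ethanolamine pathway.

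Around Selenoi, 12 genes of the CDP-ethanolamine and CDP-choline pathways were tested, of which 1 was higher and 3 were lower, with a median of 0.02. The called share of 33.3% was close to the 32.7% of all tested genes at an average FPKM of at least 1, where all 12 lie. The lowered genes belong to the choline branch. They were Chka, a choline kinase that also accepts ethanolamine (-1.24 ± 0.08 SE), Pcyt1a, which makes CDP-choline in the rate-limiting step (-0.38 ± 0.06), and Chpt1, the choline phosphotransferase (-0.35 ± 0.06). Pemt, which methylates phosphatidylethanolamine to phosphatidylcholine, was higher (0.19 ± 0.06, edgeR adjusted p = 0.0375). The other genes of the ethanolamine branch did not pass the edgeR test, with log2 fold changes of 0.16 ± 0.07 for Pcyt2, 0.11 ± 0.05 for Etnk2, -0.13 ± 0.06 for Etnk1 and -0.08 ± 0.07 for Cept1, which encodes an enzyme with the same activity as SELENOI. These 4 were named because they share its branch and lie outside the rule for named genes.

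Selenot, a thioredoxin-like oxidoreductase of the ER membrane, was lower with a less even pattern. It had 111.5, 128.0 and 141.3 CPM in WT and 112.0, 102.2 and 106.8 CPM in S100a16KO+/- libraries. WT replicate 1 lay within the range of the S100a16KO+/- libraries, so the genotypes overlapped. The mean went from 126.9 ± 14.9 CPM (WT) to 107.0 ± 4.90 CPM (S100a16KO+/-; SD, n = 3 libraries; log2 fold change -0.25 ± 0.08 SE, edgeR adjusted p = 0.0321). The call was lost when WT replicate 2 (-0.24, adjusted p = 0.0945), WT replicate 3 (-0.16, 0.167), S100a16KO+/- replicate 2 (-0.21, 0.0925) or S100a16KO+/- replicate 3 (-0.25, 0.0893) was left out. Without both libraries that stood apart it was -0.30 (edgeR adjusted p = 9.50e-04).

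Selenom and Selenon were close to the limit of what these libraries measure. Selenom, which is known from brain, had 12, 23 and 20 estimated counts in WT and 24, 37 and 35 in S100a16KO+/- libraries, which amounts to 3 to 9.25 fragments. The values did not overlap, but WT replicate 1 was at 12 counts, the highest level that an observed count of 0 would still allow, and the log2 fold change of 0.82 ± 0.52 SE did not pass the edgeR test (adjusted p = 0.304). Selenon had 43, 108 and 71 estimated counts in WT and 51, 170 and 107 in S100a16KO+/- libraries, and the genotypes overlapped (0.60 ± 0.45 SE, edgeR adjusted p = 0.399). Its highest value was in S100a16KO+/- replicate 2 and its lowest in WT replicate 1, and without these 2 libraries the sign turned (-0.21, edgeR adjusted p = 0.784). For neither gene was a genotype difference shown or excluded.

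SELENOK and SELENON are both tied to ER calcium, SELENOK through palmitoylation of the inositol trisphosphate receptor and SELENON through the calcium pump SERCA2. Of 8 tested genes of that list, 2 were higher and none was lower by the edgeR test (median 0.05). The called share of 25% was close to the 22.8% of all tested genes. At an average FPKM of at least 1 the called gene was Atp2a2, which encodes SERCA2 (log2 fold change 0.90 ± 0.05 SE). The other called gene was Itpr3, an inositol trisphosphate receptor at 0.200 FPKM in WT and 0.322 in S100a16KO+/- libraries (0.68 ± 0.20), which is named here although it lies under the FPKM limit of the rule. Leaving out WT replicate 1, WT replicate 3 or S100a16KO+/- replicate 2 left 1 called gene in this list. Zdhhc6, the partner enzyme of SELENOK, had a log2 fold change of 0.03 ± 0.06 SE and is named for that role.

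Per transcript length, the 7 genes covered a wide range. In WT cells the mean deposited FPKM was highest for Selenot (33.1 ± 5.04, SD, n = 3), followed by Selenos (22.4 ± 3.31), Selenok (17.6 ± 0.689), Selenof (16.3 ± 0.507), Selenoi (2.38 ± 0.153), Selenon (0.262 ± 0.122) and Selenom (0.153 ± 0.0556). Selenok overlapped Selenof, and Selenon overlapped Selenom. In S100a16KO+/- cells Selenos came first (35.5 ± 3.85), followed by Selenot (28.0 ± 2.44), Selenok (24.3 ± 1.37), Selenof (18.8 ± 0.214), Selenoi (1.81 ± 0.158), Selenon (0.393 ± 0.216) and Selenom (0.273 ± 0.0616), with overlaps between Selenot and Selenok and between Selenon and Selenom. Selenot, Selenos, Selenok and Selenof each exceeded at least 91.2% of all tested genes in mean FPKM, Selenoi 59.4%, Selenon 25.0% and Selenom 18.9%.

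The length that the FPKM values rest on was not the same for all members. Dividing the estimated counts per FPKM by the length of the transcript with the selenocysteine codon gave 81.9 to 95.4 per kilobase for Selenos, Selenok, Selenot and Selenon, but 295.4 for Selenof, 148.6 for Selenoi and 169.5 for Selenom. The deposited FPKM of Selenof was therefore low for its counts. On CPM per kilobase of that transcript, Selenof came first in both genotypes (70.2 ± 2.82 in WT, 80.7 ± 4.59 in S100a16KO+/-, SD, n = 3), and Selenom was above Selenon in the means. Selenos and Selenot exchanged places on this scale too, with 30.99 ± 3.44 against 40.2 ± 4.73 in WT and 49.0 ± 3.14 against 33.9 ± 1.55 in S100a16KO+/- cells. Fold changes of a gene between genotypes do not depend on this length.

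Selenos and Selenot moved in opposite directions between genotypes, yet together from library to library. The ratio of their FPKM values was 0.677, 0.686 and 0.667 in WT and 1.28, 1.23 and 1.29 in S100a16KO+/- libraries, which is 1.87-fold higher in the latter. Within a genotype this ratio varied less than either gene. Its SD on the log2 scale was 0.0196 in WT and 0.0355 in S100a16KO+/-, compared with 0.222 and 0.162 for Selenos and 0.228 and 0.129 for Selenot. WT replicate 1 and S100a16KO+/- replicate 2 had the lowest values of both genes in their genotype, in FPKM and in CPM. These 2 libraries also had the lowest scaling factors (TMM), 0.951 and 0.948, and the deposited FPKM was not scaled by them. A shift of a whole library enters both genes and cancels in their ratio. Its part in the shared movement was not tested. The pair of Selenos and Selenot was singled out after its values were seen, as 1 of 10 pairs of the 5 abundant members, so no test is given. Of these pairs, 9 did not overlap between genotypes. Taken singly, 37.9% of all tested genes did not overlap, and no such share was computed for ratios of other genes. The narrowest separation was that of Selenot/Selenoi, with 15.19 as the highest WT value and 15.27 as the lowest S100a16KO+/- value.

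**Figure D2:**
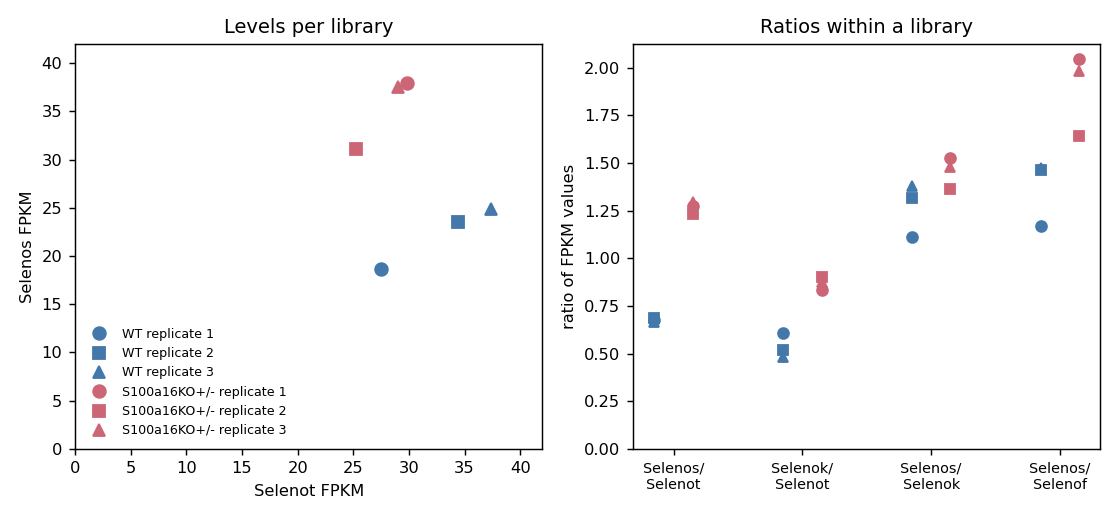
Left, Selenos FPKM against Selenot FPKM in each library, WT in blue and S100a16KO+/- in red, with marker shapes for the replicate number. Right, ratios of FPKM values within a library for 4 pairs. On the left the genotypes form separate clusters of 3 libraries, and on the right the Selenos/Selenot ratio is 0.667 to 0.686 in WT and 1.23 to 1.29 in S100a16KO+/- libraries, while Selenos/Selenok overlaps.

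The makeup of the group was described by shares, with no test. The FPKM values of the 7 genes summed to 92.1 ± 9.71 in WT and 109.2 ± 7.40 in S100a16KO+/- libraries (SD, n = 3). Selenot supplied 35.8 ± 1.77% of the sum in WT and 25.6 ± 0.590% in S100a16KO+/- libraries, and Selenos 24.2 ± 1.12% and 32.5 ± 1.39%. Selenok supplied 19.2 ± 1.34% and 22.3 ± 0.370%, Selenof 17.8 ± 1.56% and 17.3 ± 1.35%, and Selenoi 2.59 ± 0.127% and 1.66 ± 0.0332%. The shares of Selenot, Selenos, Selenok and Selenoi did not overlap between genotypes, and those of Selenof did. These shares rest on the deposited FPKM. On CPM per kilobase of the transcript with the selenocysteine codon, Selenof held 41.5 ± 2.54% and 40.5 ± 2.26%, Selenot 23.7 ± 1.74% and 17.0 ± 0.735%, and Selenos 18.3 ± 1.295% and 24.6 ± 1.56% in WT and S100a16KO+/- libraries. The ER members made up 2.59 ± 0.210% of the summed FPKM of all selenoproteins in WT and 2.82 ± 0.116% in S100a16KO+/- libraries, beside a Selenop level of 2594 FPKM in WT and 2982 FPKM in S100a16KO+/- libraries. Selenop encodes the secreted selenium carrier made by hepatocytes.

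The other selenoproteins went in both directions. Of the 14 that were tested, 2 were higher and 4 were lower, with a median log2 fold change of -0.08. The called share was 42.9%, beside 22.8% of all tested genes. Among tested genes it was 32.7% at an average FPKM of at least 1 and 46.2% at 10 or more, so 42.9% is close to the share of well expressed genes. Selenop (0.19 ± 0.04 SE, edgeR adjusted p = 0.00399) and the mitochondrial Selenoo (0.48 ± 0.07, 1.06e-04) were higher. Dio1, the deiodinase that activates thyroid hormone (-0.62 ± 0.10), the cytosolic and mitochondrial thioredoxin reductases Txnrd1 (-0.34 ± 0.07) and Txnrd2 (-0.31 ± 0.08), and Sephs2, which makes the selenium donor (-0.32 ± 0.06), were lower. The glutathione peroxidases Gpx1 (-0.09 ± 0.05) and Gpx4 (-0.07 ± 0.06) did not pass the test. Nor did Msrb1 (-0.17 ± 0.06, edgeR adjusted p = 0.0540) and the weakly expressed deiodinase Dio3 (1.24 ± 0.45, 0.0633), although neither overlapped between genotypes in CPM. Dio3, at 0.149 FPKM in WT and 0.359 in S100a16KO+/- libraries, was the only tested selenoprotein that met the 2-fold rule of the study. Over all 21 tested selenoproteins, 5 were higher and 6 lower. Split by the place of the first TGA, 2 of the 7 with it in the last exon were higher and 3 lower. Of the other 14, 3 were higher and 3 lower. Selenop, among the higher of these 14, has 10 TGA codons and was placed by its first, in exon 2 of 5. Of all tested genes, 11.6% were called higher and 11.2% lower, and no difference between the 2 parts was tested.

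**Figure D3:**
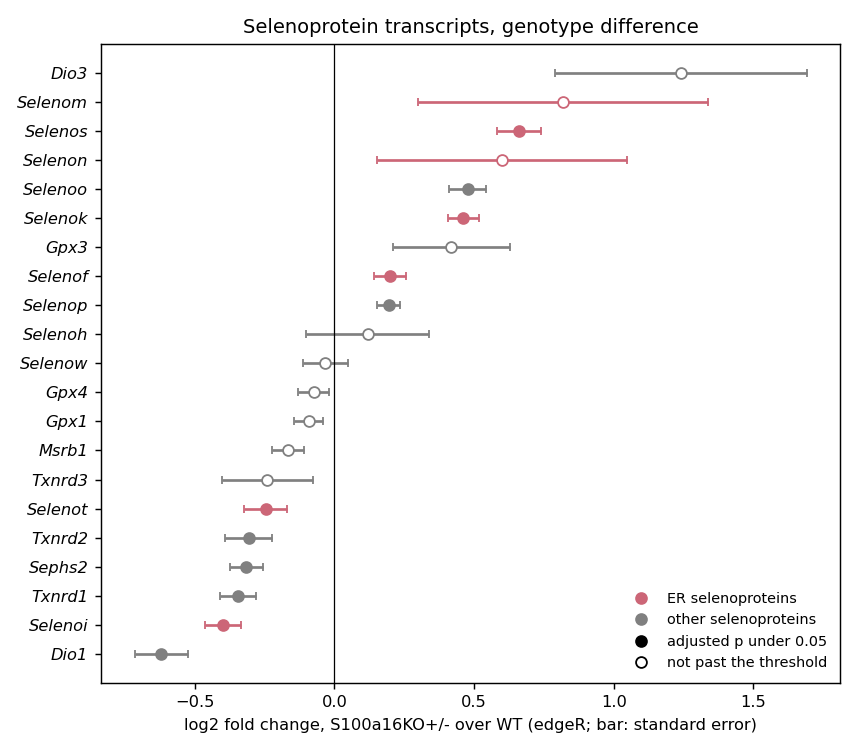
Log2 fold change of S100a16KO+/- over WT with its standard error for the 21 tested selenoprotein transcripts, from the edgeR fit, with the ER members in red and the others in grey. Filled points passed the adjusted p threshold of 0.05. Selenos and Selenok lie at 0.66 and 0.46 and Selenoi at -0.40, while the wide bars of Selenom and Selenon reach far from their points.

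The machinery that makes and inserts selenocysteine was listed as well. Of 10 tested genes, 1 was higher and 3 were lower, with a median log2 fold change of -0.10. The called share was 40%, beside 22.8% of all tested genes and 32.7% of those at an average FPKM of at least 1. Sars, the seryl-tRNA synthetase that charges the selenocysteine tRNA with serine, was higher (0.26 ± 0.06 SE). Sepsecs, which completes selenocysteine on that tRNA (-0.24 ± 0.08), Secisbp2l, a relative of the protein that binds the selenocysteine insertion sequence (SECIS) of these transcripts (-0.23 ± 0.07), and Scly, which recycles selenium from selenocysteine (-0.19 ± 0.06), were lower. The SECIS-binding protein Secisbp2 itself had -0.12 ± 0.11 and the elongation factor Eefsec 0.03 ± 0.10, neither past the edgeR test. Both are named for their role. The 4 calls of this list were not stable, as leaving out WT replicate 1 gave 3, leaving out WT replicate 2, S100a16KO+/- replicate 2 or S100a16KO+/- replicate 3 gave 2, and leaving out WT replicate 3 or S100a16KO+/- replicate 1 gave 1.

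**Figure D4:**
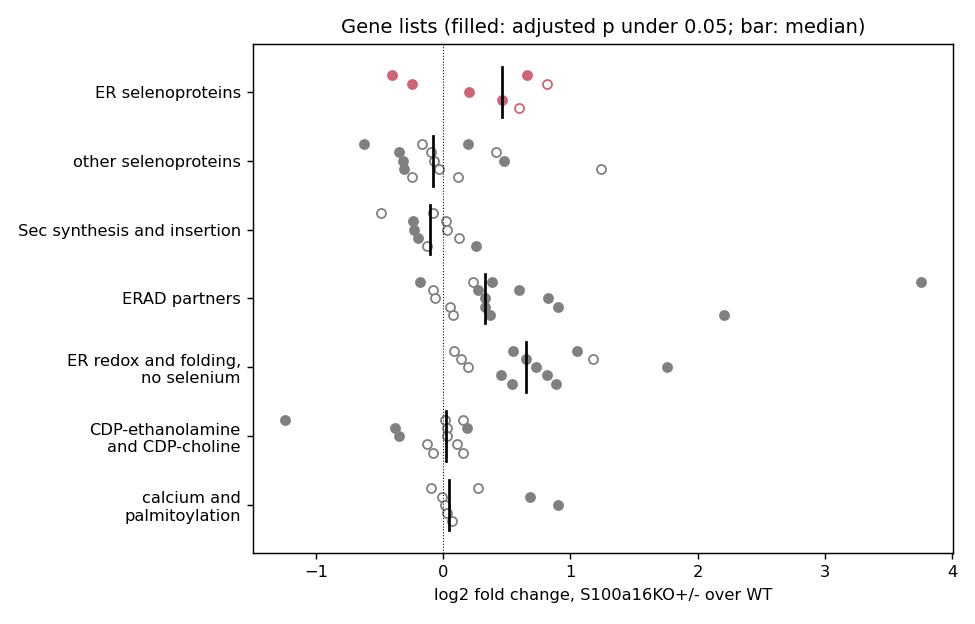
Log2 fold change of S100a16KO+/- over WT for every tested gene of the ER selenoproteins (red) and of 6 related lists (grey), with points offset vertically only to separate them. Filled points passed the adjusted p threshold of 0.05 and black bars mark medians, which are 0.46 for the ER selenoproteins (0.15 without S100a16KO+/- replicate 2), 0.33 for the ERAD partners and 0.66 for the selenium-free folding genes, and between -0.10 and 0.05 for the other 4 lists.

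The promoters were searched for elements of the unfolded protein response, since the ERAD members rose beside ERAD partner genes. The windows span 250 bases before to 50 bases after each start in RefSeq (GRCm38.p6), and all 7 members matched. None of the 7 windows held, on either strand, ERSE (CCAAT and CCACG with 9 bases between), ERSE-II (ATTGG and CCACG with 1 base between), UPRE (TGACG directly followed by TGG) or the C/EBP-ATF element (TGATG and AA with 1 base between). These occurred in 0.119%, 0.037%, 0.676% and 3.97% of all 32851 windows. The window of Derl3, the ERAD partner with the largest increase, held ERSE on the opposite strand. Hspa5 and Manf were looked up as well and are named for that reason. ERSE was found for Hspa5 on the gene strand. No match was recorded for Manf, which the study reported as raised. Only matches were recorded, so for Manf a window without a match and a missing window cannot be told apart. Since most windows lack each element, no conclusion is drawn from its absence in the 7. CCACG alone, which is the last part of ERSE and ERSE-II, occurred 3 times in the window of Selenos, 2 times in that of Selenof, once each in those of Selenok and Selenot, and in none of Selenoi, Selenom and Selenon. At least 1 match was present in 32.8% of all windows and at least 3 in 3.05%. The 120 bases before the start of Selenos, the member with the most matches, are shown with CCACG in capitals (chr7:66079529-66079648, plus strand).
Selenos: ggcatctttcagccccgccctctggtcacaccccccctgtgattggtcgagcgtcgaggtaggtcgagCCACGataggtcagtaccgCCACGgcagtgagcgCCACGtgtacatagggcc
A match is a description of letters and was not tested for binding.

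Genes whose levels ran most closely with each member over the 6 libraries were listed by Pearson's r on log2(CPM + 1), among 2776 genes with at least 32 CPM. For Selenos these were Vmp1 (0.997), Hp (0.996) and Fgl1 (0.995), for Selenok Gys2, Got1 and Cdip1 (0.999 or more), for Selenoi Itprid2, Ak4 and Isoc1 (0.998 or more) and for Selenot Dld, Pitpnc1 and Arfgef2 (0.979 to 0.992). The genotype difference enters each value, since all 6 libraries are used. An r of at least 0.95 was reached by 357 genes with Selenok, 339 with Selenoi, 175 with Selenos, 70 with Selenof and 21 with Selenot. For the barely measured Selenom and Selenon it was reached by 1 and 4 genes, led by Snd1 (0.986) and Tbc1d9b (0.988).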

How the data were processed

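Polyadenylated RNA of 6 hepatocyte samples was sequenced as paired-end strand-marked libraries with unique molecular identifiers. Groups were taken from the genotype labels, and each library was used as 1 replicate, with 3 per genotype. The labels do not say that replicates are separate animals, so p-values measure the spread between these samples, which may be technical. The authors deposited 1 table with an estimated count and an FPKM value per gene and library. The submitters' processing notes name cutadapt 1.9, HISAT2 2.0.4, UMI-tools, StringTie 1.3.4d, DESeq2, edgeR and the build mm10, with no order or settings. In each library more genes had exactly 4 counts than 3 or 5, so 1 fragment is worth about 4 counts, and the limit for a count of 0 is 12 counts, for counting error only. The deposited FPKM was used for levels between genes.

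Estimated counts were tested over 15957 genes with edgeR 4.0.16 in R 4.3.3 (TMM scaling, filterByExpr, robust quasi-likelihood fit, two-sided, no covariate), with Benjamini-Hochberg adjustment. CPM values are TMM-scaled. DESeq2 1.42.0, limma 3.58.1 and other filters, scalings and sample sets were alternatives. The fit was tested on simulated data. There edgeR recovered 30.6% of 85 genes changed by 0.5 on the log2 scale and 61.1% of 108 changed by 1, with 6 false calls. Far fewer genes were changed there than the 3643 called in the real data, so these shares need not hold for the reported fit. A gene that did not pass may still differ. Coordinates follow the table, and 25655 of its genes were found in GENCODE M21 on GRCm38, 89.7% of them with the same start and end.

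All 7 members and S100a16 were named. From each list, up to 4 called genes of largest change in each direction with mean FPKM of at least 1 were named, any measured selenoprotein could be named, and for likeness the 3 genes of highest r, which are not reported here for Selenof. Exceptions are stated where they occur. The members and lists were chosen with earlier results of these data known. Of the 24 selenoproteins, Gpx2 and Dio2 did not pass the filter and Selenov was not analysed here.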

Additional observations from a re-analysis of the deposited data

How the results depend on the processing

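Over 17 other settings Selenos (0.58 to 0.73), Selenok (0.45 to 0.49) and Selenoi (-0.43 to -0.27, log2 fold change) kept their direction and their call, with adjusted p of at most 0.00718, 0.00233 and 0.0310. Selenof kept its direction and lost its call in 4 settings, and Selenot in 7. On log2(FPKM + 1) and log2(FPKM + 0.1) in limma Selenot had adjusted p = 0.203 and 0.205. Leaving out 1 replicate gave 3 to 5 called members and 1 to 2 called lower, 1 to 3 called genes of selenocysteine synthesis and 1 to 2 of the calcium list. Without the 2 libraries that stood apart, chosen after seeing the data, the calcium list had 1 called gene and Selenon turned to -0.21. Both FPKM settings called 1 member lower, 3 other selenoproteins and 1 gene of selenocysteine synthesis. Among all genes they called 2188 (1146 higher, 1042 lower) and 2167 (1140 higher, 1027 lower) of 9054, and 137 and 251 by the 2-fold rule, against 3643 and 721 in the reported fit. The filter at 10 CPM left 187 genes by that rule and 1 called gene of the calcium list, and limma voom called 2 genes of selenocysteine synthesis. Selenom and Selenon could not be fitted with FPKM or the 10 CPM filter, and Selenom not on counts divided by 4.

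The replicate numbers were not used as pairs in the reported fit. Deviations of same-numbered libraries correlated at -0.047, -0.024 and 0.052. With 3 libraries per genotype these values cannot show whether same-numbered samples were prepared together, and the labels do not say. With the replicate block 3 members were called, 1 of them lower, and 1 gene of selenocysteine synthesis, and Selenof and Selenot had adjusted p = 0.0660 and 0.0583.

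Without Selenot, the shares of the summed FPKM in WT and S100a16KO+/- cells were 37.8% and 43.7% for Selenos, 29.8% and 30.0% for Selenok, 27.7% and 23.3% for Selenof, 4.03% and 2.23% for Selenoi and 0.255% and 0.339% for Selenom, and that of Selenon in WT was 0.437%. On CPM per kilobase of the transcript with the selenocysteine codon, added after seeing the data, the ranks in WT and S100a16KO+/- cells were 1 and 1 for Selenof, 2 and 3 for Selenot, 3 and 2 for Selenos, 4 and 4 for Selenok, 6 and 6 for Selenom and 7 and 7 for Selenon. On the same scale the shares in WT and S100a16KO+/- cells were 41.5% and 40.5% for Selenof, 23.7% and 17.0% for Selenot, 18.3% and 24.6% for Selenos, 13.1% and 15.3% for Selenok, 3.04% and 1.96% for Selenoi and 0.220% and 0.333% for Selenom. Selenom and Selenon held 3 to 42.5 fragments a library.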
